A study of Homo sapiens with 52 samples.

Results

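Contact of the alpha and beta globin loci with the nuclear lamina was described in single cells of KBM7, a human cell line established from chronic myeloid leukaemia. The beta globin locus was taken as chromosome 11 from 5.24 to 5.3 Mb and the alpha globin locus as chromosome 16 from 0.2 to 0.24 Mb (hg19), by position and not by measured values. At a resolution of 100 kb each locus lay in a single bin, chr11:5200001-5300000 for beta globin and chr16:200001-300000 for alpha globin. With 2 Mb of flank, the beta globin window held 41 bins and the alpha globin window 23, so 64 of the 26584 bins with a value were examined. The alpha globin window was shorter because the locus lies near the end of its chromosome.

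All cells came from clone 14, had a ploidy of 2N, and expressed LaminB1, a filament protein of the lamina, fused to Dam. Dam is a bacterial enzyme that methylates adenine within the sequence GATC, so DNA near the lamina becomes marked. Methylation had been switched on with 0.5 nM Shield1, a small molecule that stabilises the fusion, for 15 h. The smallest 2% of the cells positive for both Fucci cell cycle markers were sorted one by one. The 51 cells with values formed 1 group from 1 clone, and no separate cultures are named, so they count as 1 sample and SDs describe these cells only. No expression was measured, so neither the label of the line nor the activity of the globin genes could be checked against markers.

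Each bin of each cell has an observed signal divided by an expected one (the OE), and contact was called from an OE of 1 upwards. Whole reads were recovered from the ratios and ranged from 50978 to 316463 per cell, with a median of 142540. Contact covered 31.5% of values over all bins and cells. A cell of ploidy 2N carries both homologues, and a value does not tell which of them gave the signal.

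Haemoglobin is built from alpha-like and beta-like chains that are encoded in separate clusters. The beta cluster holds HBE1 (embryonic epsilon chain), HBG2 and HBG1 (fetal gamma chains), HBD (minor adult delta chain) and HBB (major adult beta chain). Its locus control region, a group of enhancers upstream of HBE1, drives these genes in red cell precursors. The alpha cluster holds HBZ (embryonic zeta chain) and the near-identical HBA2 and HBA1 (fetal and adult alpha chains), and its main enhancers lie inside NPRL3, a widely expressed neighbour that encodes a regulator of growth signalling. Regions at the lamina are as a rule poor in active genes, and textbooks describe the beta cluster as embedded in closed, late-replicating chromatin outside the red cell lineage and the alpha cluster as lying in open, gene-rich chromatin in all tissues.

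The order of genes in RefSeq (GRCh38.p14) shows how different the neighbourhoods are. Olfactory receptor genes, which encode odorant receptors of the nose, made up 19 of the 20 protein-coding genes on the HBB side of the beta cluster and 13 of the 20 on the HBE1 side. The nearest were OR51V1 beside HBB and OR51B4 beside HBE1, and 5 of the 20 on the HBE1 side were TRIM genes, a family with antiviral members. On the telomere side of HBZ the table lists 7 protein-coding genes, the last of them NPRL3, and on the other side of HBA1 the nearest 20 include HBQ1, LUC7L and AXIN1. None of these 27 neighbours was an olfactory receptor gene. The bins were not assigned to genes other than the globins, because an hg19 annotation was not used here.

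Upstream sequences are shown for 1 gene of each cluster, to set the base composition of the compared regions side by side. Of the 8 globin genes, HBD was matched in the RefSeq promoter table (GRCh38.p14). HBM, an alpha-like gene between HBZ and HBA2, stands for the other cluster. Each sequence holds the 250 bases before the transcription start, 5′ to 3′, with CG dinucleotides in capitals. HBD lies on the minus strand at chr11:5234484-5234733 and HBM on the plus strand at chr16:165728-165977, both in GRCh38.p14.
HBD: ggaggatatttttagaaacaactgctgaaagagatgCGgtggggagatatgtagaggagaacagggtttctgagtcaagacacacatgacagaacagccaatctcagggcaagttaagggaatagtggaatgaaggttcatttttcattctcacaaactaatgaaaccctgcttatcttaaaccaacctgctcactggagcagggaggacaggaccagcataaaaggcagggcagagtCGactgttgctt
HBM: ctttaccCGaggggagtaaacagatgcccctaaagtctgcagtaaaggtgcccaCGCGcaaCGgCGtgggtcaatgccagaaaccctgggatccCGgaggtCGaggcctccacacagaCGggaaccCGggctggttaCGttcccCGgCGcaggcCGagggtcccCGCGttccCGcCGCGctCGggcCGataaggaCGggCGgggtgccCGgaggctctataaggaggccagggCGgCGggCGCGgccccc

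The HBD promoter held 2 CG dinucleotides and 45.2% G or C, while the HBM promoter held 27 and 69.2%. Over the 35116 promoters of this length the medians were 11 CG dinucleotides and 58% G or C, and 22.9% held as few CG as HBD and 17.7% as many as HBM. GATC, the sequence that Dam methylates, reads alike on both strands. It occurred 1 time in the HBM window and was not found in the HBD window. Of all promoters, 35.8% held it. Among listed neighbours of alpha globin, 10 of 12 were matched, with a median of 70.4% G or C. A list of 10 genes from the wider surroundings of beta globin, most of them widely expressed and TRIM68 among them, was matched in full and had a median of 70.8%. TRIM21, TRIM5, TRIM6 and TRIM34, the 4 matched of a second list of 5 TRIM genes, had a median of 53%. Of 11 listed olfactory receptor genes next to beta globin 2 were matched, OR52A5 with 40% and OR51V1 with 30.8%. These are descriptions of sequence and were not tied to contact at the level of single genes.

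At an OE of 1 or more, the beta globin bin was at the lamina in most cells. It was in contact in 37 of 51 cells, a frequency of 72.5% (95% Wilson interval 59.1% to 82.9%, counting error only), and 24.5% of all measured bins reached at least that frequency. On chromosome 11 the share of such bins was 29.3%. Its OE ranged from 0 to 4.13, with a median of 1.49 and a mean of 1.68 ± 1.05 (SD, n = 51 cells). The highest values were 4.13 in cell 51, 3.63 in cell 39 and 3.40 in cell 4. In 19 of the 51 cells (37.3%) the OE reached 2, so contact in most cells holds at the lower threshold and not at this one. A further 7 cells lay from 0.5 to under 1 and 4 had reads but an OE under 0.5. In 3 cells, numbers 10, 22 and 52, the bin held no read. No gap separated high from low values, as the plot of OE against reads shows.

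**Figure D1:**
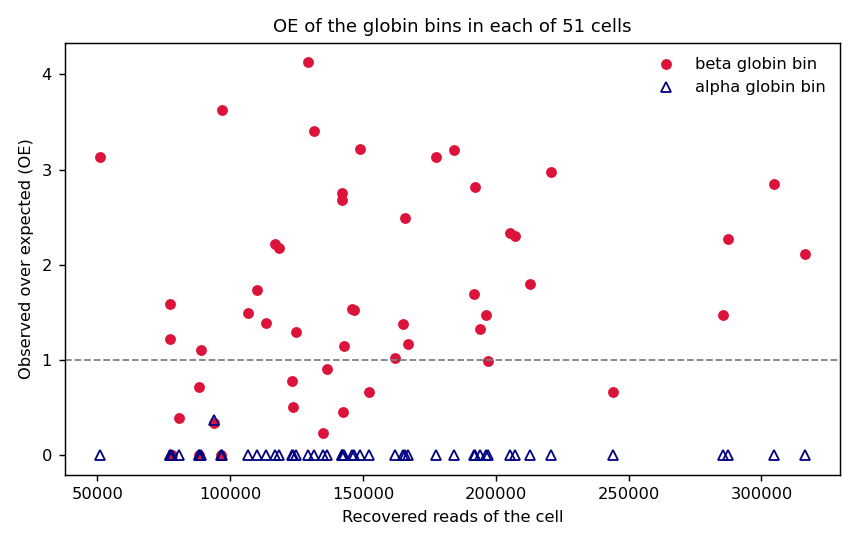
OE of the beta globin bin (red circles) and the alpha globin bin (open blue triangles) in each of 51 cells, against the recovered reads of the cell; the dashed line marks an OE of 1. The beta globin values spread from 0 to 4.13, while the alpha globin values lie at 0 in 50 cells.

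The reads behind these calls were few. The beta globin bin had an expected number of 238 and held 0 to 27 reads per cell, with a median of 7 and 435 over all cells. An OE of 1 in this bin corresponded to 1.60 reads in the shallowest cell and to 9.96 in the deepest, with a median of 4.42. Single calls near the threshold, such as the OE of 0.987 from 6 reads in cell 40, therefore rest on differences of about 1 read.

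The alpha globin bin was not in contact in any cell. With 0 of 51 cells, a share of up to 5.88% is allowed by the limit of 3 counts. Bins contacted in no cell made up 38.7% of all bins, so this value alone does not set the alpha globin bin apart. Its OE was 0 in 50 cells and 0.372 in cell 21. That value alone fixes the expected number of the bin, which is 214 if it was 1 read and a whole multiple of 214 otherwise. At 214, an OE of 1 corresponds to a median of 3.97 reads per cell, and at a multiple to more.

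The whole alpha globin window was likewise without contact. All 23 bins were contacted in no cell. Over the window, 21 of 1173 values (1.79%) were above 0, against 59.4% in the beta globin window and 49.9% over all bins. With the smallest expected numbers that fit, these values came from 25 reads in 13 cells, of which cell 32 held 6 and cell 21 held 4. The highest OE of any bin and cell was 0.572. In 11 of the 23 bins no cell had a read, against 3 of 41 in the beta globin window and 1985 of 26584 over all bins. The expected number of these 11 bins is unknown, so no limit is given for them. The smallest expected numbers that fit the other 12 ranged from 110 to 321.

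Contact on chromosome 16 began well beyond the window. The first bin in contact in any cell was chr16:5300001-5400000, 5.1 Mb from the alpha globin bin, with 5 cells. The first bin contacted in at least 20% of cells lay 5.9 Mb away, with 20 cells. In single cells the distance from the alpha globin bin to the first contacted bin had a median of 6 Mb and ranged from 5.1 to 50.7 Mb. Cell 31 alone had no contact on the chromosome, and cells 25 and 30 had contact in 0.764% and 1.78% of its bins. The genome shares of cells 31, 25 and 30 were 30.6%, 29.3% and 32.8%. In these cells the lack of contact was not particular to the alpha globin window. The rest of chromosome 16 was contacted in 18.2% ± 7.11 (SD, n = 51) of its bins.

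Set against each other within the same cells, the loci differed in the same direction in all but 4 cells. Contact was present at beta globin only in 37 cells, at neither locus in 14, at both in 0 and at alpha globin only in 0. The OE of the beta globin bin exceeded that of the alpha globin bin by 1.67 ± 1.06 (SD, n = 51). It was higher at beta globin in 47 cells and 0 at both loci in 3. Cell 21 was the exception, with 0.334 at beta globin from 1 read and 0.372 at alpha globin. The OE of alpha globin was 0 in 50 cells, so these counts follow almost wholly from the beta globin bin. No p-value is given, since the cells are 1 sample.

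Over the windows the difference had the same sign in nearly all cells. The beta globin window was contacted in 38.8% ± 12.8 (SD, n = 51) of its bins, from 0% to 63.4% with a median of 41.5%, and the alpha globin window in 0% in every cell. The beta globin window was higher in 50 cells and equal in cell 10, which had no contact in either. Mean OE was 1.13 ± 0.417 in the beta globin window and 0.00422 ± 0.0103 in the alpha globin window, and it was higher in the former in all 51 cells. The beta globin window lay above the share of all bins contacted in 37 cells and below it in 14. The rest of chromosome 11 was contacted in 34.9% ± 6.02 (SD, n = 51), which lies within 1 SD of the window's share.

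**Figure D2:**
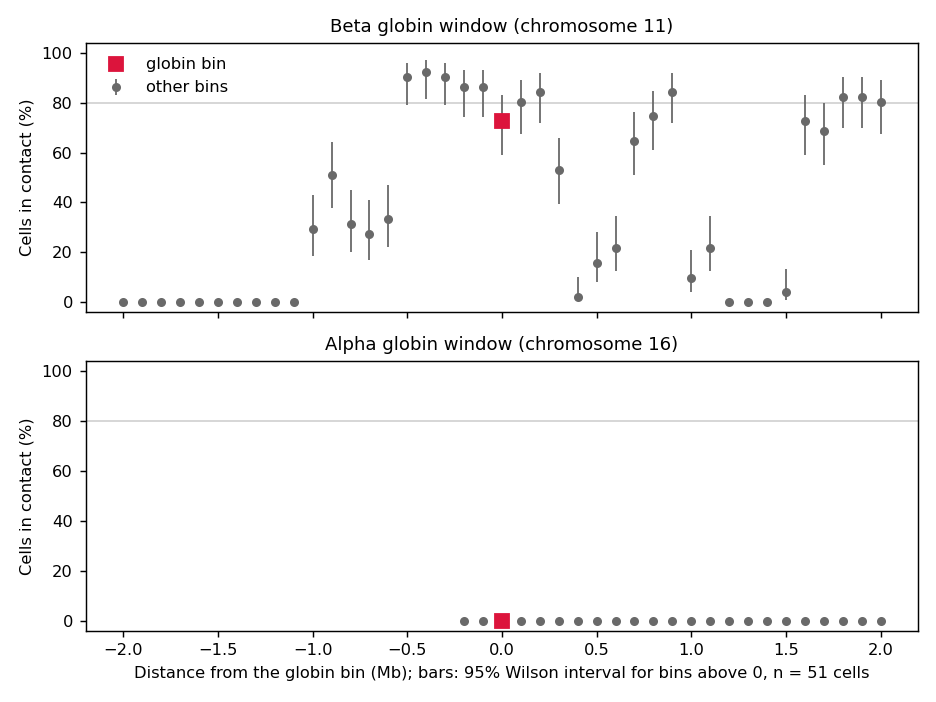
Share of 51 cells in contact (percent) for each 100 kb bin of the beta globin window (top) and the alpha globin window (bottom), against the distance from the globin bin in Mb; red squares mark the globin bins, bars are 95% Wilson intervals, drawn for bins contacted in at least 1 cell, and the grey line marks 80%. Beta globin sits at 72.5% inside a stretch of high contact, with 14 to 26 cells in each of the 5 bins before it and 1 cell in the bin after it, and all 23 bins of the alpha globin window are at 0.

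The beta globin window was a patchwork. Of its 41 bins, 11 (26.8%) had contact in 80% of cells or more, against 20.9% of all bins. This order turned under other settings. With all cells thinned to the reads of the shallowest the shares were 14.6% (6 bins) and 16.6%, and in even-numbered cells 17.1% (7 bins) and 20.8%. At an OE of at least 2 they were 0% (0 bins) and 4.24%, and with a flank of 5 Mb 11.9% (12 bins) and 20.9%. For the top 30% of bins per cell both were 19.5%. The order held under the remaining settings, with 38.1% (8 bins) and 20.9% at a flank of 1 Mb. At an OE of 1 and a flank of 2 Mb, 13 bins of the window (31.7%) were contacted in no cell. At that threshold at most 5% of cells contacted 15 of the bins (36.6%), where the share over all bins was 46.7%. Runs of bins with a frequency of 50% or more, a limit chosen after the profile was seen and reached by 32.1% of all bins, split the window into 4 stretches. Beta globin lay in the longest, chr11:4700001-5600000, which spans 0.9 Mb and 9 bins. The others were the single bin chr11:4300001-4400000, the 3 bins of chr11:5900001-6200000 and the 5 bins of chr11:6800001-7300000, which reach the edge of the window.

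The stretch around beta globin was contacted in 81.7% ± 24.4 (SD, n = 51) of its bins. Its mean OE was 2.33. All 9 bins were in contact in 22 cells, 8 in 10 cells and 7 in 7, and 1 cell had none. Frequencies within it ran from 92.2% (47 cells) at chr11:4800001-4900000, 0.4 Mb from the globin bin on the HBB side, to 52.9% (27 cells) at its last bin, chr11:5500001-5600000. With all cells thinned to the reads of the shallowest, the whole stretch was in contact in 23.5% of cells. At an OE of at least 2 this share was 5.88%, and at an OE of at least 0.5 it was 60.8%.

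Both stretches on the HBE1 side differed from it by less than 1 SD over cells. The 3 bins of chr11:5900001-6200000 were contacted in 74.5% ± 31.7 (SD, n = 51), and the 5 bins of chr11:6800001-7300000 in 77.3% ± 31.0. The single bin chr11:4300001-4400000 was contacted in 26 cells (51.0%), below every bin of the beta globin stretch, and had the highest OE of the window, 14.1, but its expected number was 59, the lowest of the window, so its values rest on few reads.

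Contact between and beside these stretches was uneven. Next to the beta globin stretch on the HBB side, the 3 bins from 4400001 to 4700000 were contacted in 16, 14 and 17 cells (31.4%, 27.5% and 33.3%), near the 31.5% of values in contact over all bins. The bin chr11:4200001-4300000 was contacted in 15. Further out on that side, the 10 bins from 3200001 to 4200000 were in contact in no cell, with 38 reads over all cells and a highest OE of 0.633. On the HBE1 side, the 3 bins from 6400001 to 6700000 were in contact in no cell, with 26 reads. The bin chr11:5600001-5700000, at the end of the beta globin stretch, was contacted in 1 cell, and the 2 bins after it in 8 and 11. The bins contacted in no cell had expected numbers of at least 60 to 469 where a number could be recovered, several of them above that of the globin bin.

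Several borders in the window were steep. The steepest lay 0.9 Mb from beta globin on the HBE1 side, where contact fell from 43 cells at chr11:6100001-6200000 to 5 at the next bin, and no cell contacted the second bin without the first. This difference of 74.5 points was reached by 0.238% of 26445 adjacent pairs of bins. Next came the rise from 2 to 37 cells at 6800001, 68.6 points, and the rise from 17 to 46 cells at 4700001, the HBB-side border of the beta globin stretch, 56.9 points. At that border 30 cells contacted the inner bin alone, 16 contacted both and 1 the outer bin alone. At the opposite border the count fell from 27 cells to 1 at 5600001, 51.0 points. As many points were reached by 1.97% of adjacent pairs.

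Within its stretch the globin bin stood lower than the bins beside it. The adjacent bin on the HBB side was in contact in 44 cells (86.3%) with a mean OE of 2.36, and that on the HBE1 side in 41 (80.4%) with a mean OE of 2.35. Averaged per cell, these 2 bins had an OE of 2.36 ± 1.07 (SD, n = 51). The globin bin was lower than this average by 0.67 on average (SD 0.994), lower in 39 cells, higher in 11 and equal in 1. The mean difference is smaller than its spread between cells. Of the 39 cells with contact in both adjacent bins, 5 lacked it in the globin bin, and no cell had contact in the globin bin alone among the 3. The globin bin also had the lowest expected number of the stretch, 238 against a median of 374, and its part in the lower OE was not tested.

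Contact at beta globin went with contact over the rest of its stretch. In the 37 cells with contact at the globin bin, the other 8 bins were contacted in 92.9% ± 10.0 (SD), with a lowest value of 62.5%. In the 14 cells without it they were contacted in 56.2% ± 27.2, from 0% to 87.5%. Of these 14 cells, 13 still had contact in another bin of the stretch. The run of contacted bins that held the globin bin had a mean length of 0.957 Mb ± 0.301 (SD, n = 37 cells), with a median of 0.9 Mb, from 0.3 Mb in cell 13 to 1.7 Mb in cell 26, the deepest cell. It ended at the HBE1-side end of the stretch in 23 cells and passed it in 1. On the HBB side it ended at the end of the stretch in 18 cells and passed it in 15. Over all contacted bins of the same cells the run had a mean length of 1.55 Mb ± 0.286, and the beta globin run was longer than its cell's mean in 1 of 37 cells. Run lengths and calls come from the same values.

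**Figure D3:**
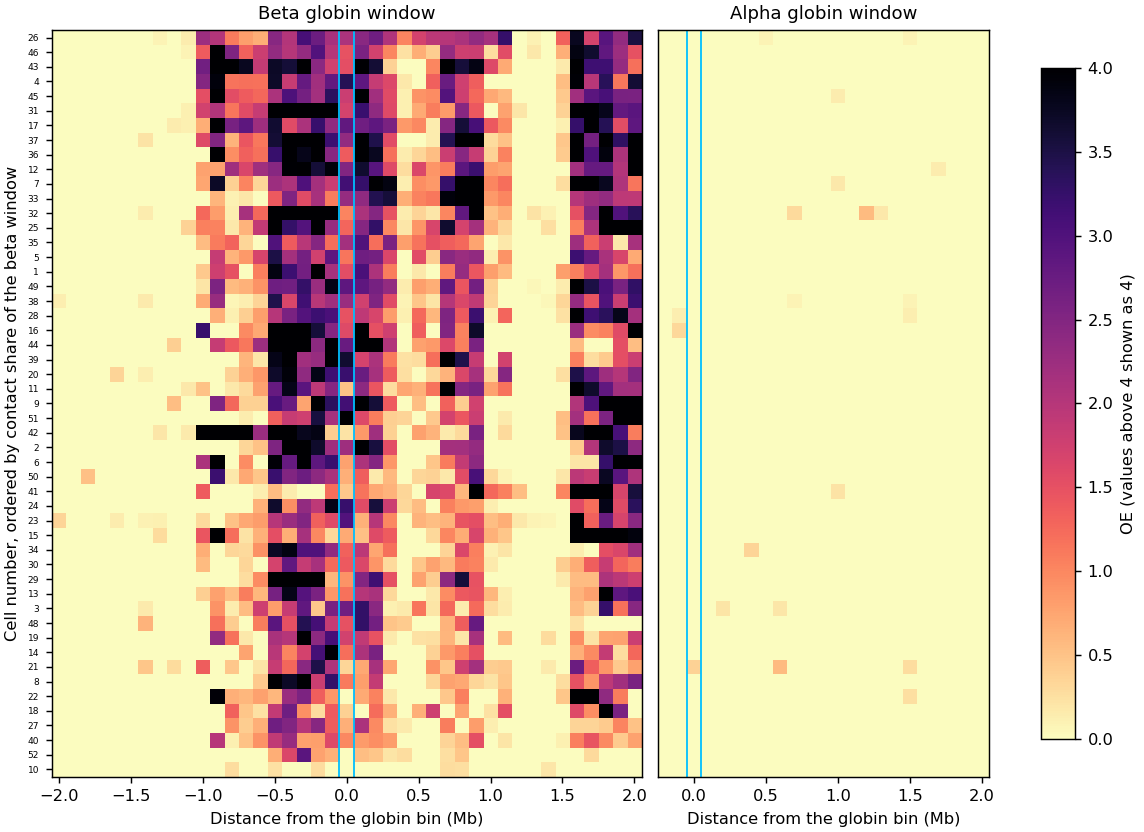
OE of every bin (columns, distance from the globin bin in Mb) in every cell (rows, ordered by contact share of the beta globin window) for the beta globin window (left) and the alpha globin window (right); colours run from 0 to 4 and blue lines frame the globin bins. High OE fills the stretch around beta globin in most cells, cells 52 and 10 at the bottom have little or none, and the alpha globin window holds 21 values above 0.

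Cells without contact at beta globin also had fewer reads at the median and a lower mean contact share. Their reads ranged from 78262 to 244070 with a median of 123384, against 50978 to 316463 with a median of 148847 in the cells with contact. Their share of contacted bins over the genome was 29.3% ± 2.85 (SD, n = 14), against 32.3% ± 3.48 (n = 37). Over the 51 cells, which share a clone and a protocol, Pearson's r between the OE of the bin and the reads of the cell was 0.255, and Spearman's rho was 0.311. Between the OE and the genome's contact share r was 0.327 and rho 0.351. Without the 2 farthest cells these r values were 0.208 and 0.350. The part of depth in the calls was not tested in single cells. With all cells thinned to 50978 reads, 64.7% of cells had contact at beta globin, within the interval given above, and 0% at alpha globin.

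The stretch around beta globin varied together with both stretches on its HBE1 side, and less with the single bin chr11:4300001-4400000. The contact share of the beta globin stretch correlated with that of chr11:5900001-6200000 with r = 0.725 and rho = 0.720 (n = 51 cells of 1 clone). Without the 2 farthest cells, 10 and 41, r was 0.728. These were picked on the beta globin stretch alone. Cell 52 tied there with cell 41 at 22.2% and was kept. In the other stretch cell 41 had 66.7% and cell 52 had 0%, and r without cell 52 was not computed. After subtraction of each cell's genome share r was 0.701. In the odd-numbered cells alone r was 0.478. With the more distant stretch chr11:6800001-7300000 the values were r = 0.437 and rho = 0.392, and r was 0.405 without the 2 farthest cells. Between both HBE1-side stretches r was 0.511. The single bin chr11:4300001-4400000 had r = 0.231 and rho = 0.292 with the beta globin stretch, and r values of 0.245 and 0.194 with the others. As 1 bin with an expected number of 59, it had a share of either 0% or 100% in each cell. The part of this in its lower r was not tested. Cells share one depth and one library across these bins, so the correlations are descriptions.

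Single bins were compared with the globin bin through the phi correlation of their calls, where 1 means the same call in every cell. The adjacent bins had phi values of 0.521 and 0.582, and had the globin bin's call in 42 and 43 of 51 cells. The bin 1 Mb away on the HBB side had -0.09 and that 0.8 Mb away on the HBE1 side 0.447. Beyond the window, the most alike bins of chromosome 11 were chr11:31200001-31300000 (phi 0.522) and chr11:55200001-55300000 (0.521), among 510 bins with a mean of 0.121. On other chromosomes they were chr13:76900001-77000000 and chr13:78900001-79000000 (0.594 each), followed by chrX:111800001-111900000 (0.590), among 9883 bins with a mean of 0.0684 and an SD of 0.143. These bins are the extremes of long lists, and their values carry no test.

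**Figure D4:**
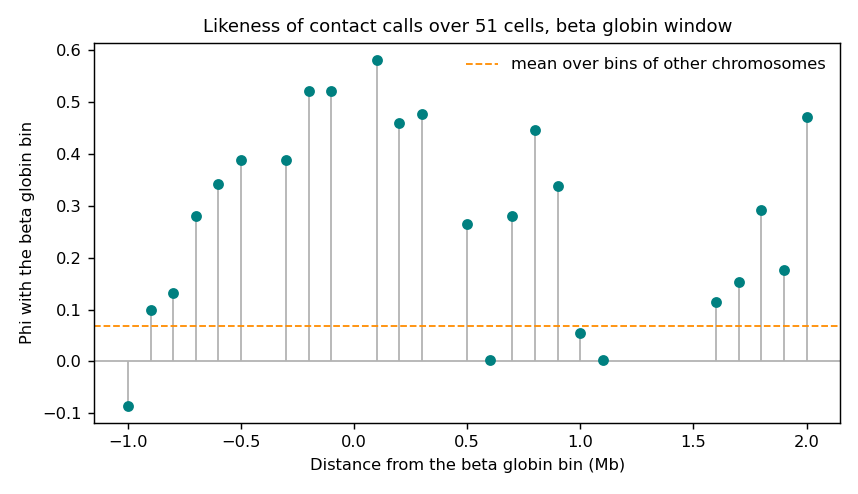
Phi correlation over 51 cells between the contact calls of the beta globin bin and each other bin of its window that was contacted in at least 5 and in all but 5 cells, against distance in Mb; the dashed line is the mean over bins of other chromosomes, 0.0684. Values peak beside the globin bin at 0.582, fall to about 0 at 0.6 Mb and 1.1 Mb, and reach 0.447 at 0.8 Mb and 0.471 at 2 Mb.

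Bins at the same distance from the start of other chromosomes gave a frame for position. Of 14 such bins for alpha globin, 10 were contacted in no cell, as were 38.7% of all bins. Among the 10, those on chromosomes 1, 4 and 7 had no read in any cell, so their expected number is unknown. Chromosome 3 was highest, with 31 cells (60.8%), followed by chromosome 6 with 2. For beta globin the 15 bins had a median frequency of 1.96% and ranged from 0% to 98.0%. On chromosomes 2 (50 cells) and 18 (40 cells) they exceeded beta globin. Contact near a chromosome start thus ranged widely. The absence of contact calls at alpha globin was shared by most of the bins at its distance, those without a read included.

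A few cells departed from the common pattern. Cell 10 had no contact in the beta globin window, with 6 reads and a highest OE of 0.280. Its share on chromosome 11 was 14.5%, the lowest of the 51 cells, while its share of the genome was 29.9%. Cell 52 had contact in 2 bins of the window, chr11:4800001-5000000, and 25.7% on chromosome 11. Cell 41 had no contact from 4300001 to 5100000, with at most 4 reads in any of these bins, yet had the highest OE of all cells at chr11:6100001-6200000 (5.50) and chr11:6800001-6900000 (8.90). Cell 42 had the highest mean OE of all cells from 4200001 to 4600000, 6.84 against a median of 0.800, but an OE of 0.232 from 1 read in the globin bin and of 0.411 and 0.848 in the bins beside it. All 5 bins of chr11:6800001-7300000 were in contact in cells 41 and 42, which were among 27 of the 51 cells where this was so. Cell 51, with the highest OE at beta globin, had 23.0% on chromosome 11, the second lowest share.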

How the data were processed

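The authors' deposited file gives, for each 100 kb bin (hg19) and cell, the ratio of observed over expected signal (OE). Cutadapt and Bowtie2 2.1.0 are named per the submitters' processing notes. How the expected value was made and how duplicates were treated is not given in the sources used here. Of 52 labelled cells, 51 have a column and cell 47 was not analysed here. Of 30376 bins, the 26584 with a value in every cell were used.

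Reads were recovered by writing each ratio as reads, a whole number, times a cell factor over a whole number for the bin (the expected number), which held for 100% of values above 0 within 0.02 reads. Where a bin has few reads, the expected number is the smallest that fits. On simulated data over 24599 bins, 99.998% of values were recovered. The simulation started from the recovered expected numbers, so it cannot show whether a bin with few reads had a larger one. Reads never exceeded the expected number, so they may be distinct sites. Wilson intervals at the 95% level cover counting error only, since PCR reads carry no molecular identifiers.

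Alternatives were other OE thresholds, the top 30% of bins per cell, thinning, bin filters, cell subsets and flank widths. The bins, gene lists and tests were chosen with earlier results of these data known. Named bins were the globin bins, window edges, borders and extremes, and the bins with the highest phi. Other bins and cells were named after their values were seen. Python 3.11.15, NumPy 2.4.6, pandas 2.3.3 and SciPy 1.17.1 were used.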

Additional observations from a re-analysis of the deposited data

How the results depend on the processing

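Of 154 values recomputed under 11 alternatives, 126 stayed within 1 SD over cells, their interval or 1.5 times a count, and 28 moved further. That SD is the spread between cells, so large shifts could count as staying. With the threshold raised to 2, contact over the beta globin stretch went from 81.7% to 58.6% (SD 24.4). The steepest border went from -74.5 to -45.1 points (SD 44.0), and both count among the 126. Others, such as the frequency at beta globin under the bin filters, could not change, because its bin passes both. The tally is therefore not a measure of stability. Frequencies, shares, counts and lengths cannot be negative, so only differences, borders and correlations could change sign, and none did. The OE difference between the globin bin and its neighbours does not depend on the contact threshold. The order of the beta globin window and all bins at 80% of cells, not among these values, did turn, as given above. The alternatives for single bins beside beta globin, its stretch, the borders and the share of all bins reaching 80% of cells were chosen after seeing the data. The alpha globin bin was in contact in 0% of cells under the 9 run on it, the flank widths aside. Its highest OE was 0.372, so thresholds of 0.5 and 2, bin filters and cell subsets could only return 0% and carry no test. At an OE of at least 0.5, beta globin was in contact in 86.3% of cells, which is also its difference from alpha globin, and the alpha globin window had 0.171% contact. At an OE of at least 2, the frequency and the difference were 37.3%, the beta globin window and its difference from the alpha globin window stood at 24.4%, 0 bins of it reached 80% of cells, and the run holding beta globin was 0.558 Mb. After thinning, the alpha globin window had 0.0853% contact and 6 bins of the beta globin window reached 80% of cells, and 7 did in even-numbered cells. Flanks of 1 Mb and 5 Mb gave the beta globin window and its difference 56.2% and 20.2%, and 13 and 53 alpha globin bins without contact. Counting only bins with a read, or with an expected number of at least 100, left 12 such bins. The shifts with threshold and bin set follow from their construction. Those with flank depend on the bins that each flank holds. At 5 Mb the beta globin window's 20.2% lay below the 31.5% of values in contact over all bins. For thinning and cell subsets the cause was not tested. Depth limits single calls most in the shallowest cell, where an OE of 1 at beta globin was 1.60 reads. Cells could not be paired with those of another group, because they form 1 group. The pairing used was that of the 2 loci, compared within each cell.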
